A study of Rattus norvegicus with 12 samples.

Results

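The 10 genes described here are the circadian clock genes Per1, Per2, Per3, Cry1, Cry2, Clock, Nr1d1, Nr1d2 and Dbp, together with Noct, in aortic smooth muscle cells stimulated through thrombin receptors. They were taken by symbol from the array annotation, where a probe set had to list exactly 1 gene, which gave 18 of the 31099 probe sets of the array. Of these 18 probe sets, 14 were bright enough to be tested (mean log2 signal past the 40th percentile), and they cover 9 of the 10 genes. The single probe set of Per1 was too dim. The study measured transcripts on 12 arrays in smooth muscle cells cultured directly from the aorta of newborn rats and kept without serum overnight. There were 6 groups of 2 arrays, in 3 experiments that each had unstimulated (basal) cells of their own. The stimulated cells received thrombin at 2 U/ml, TRAP (a peptide that activates a thrombin receptor without the protease) at 25 µM, or the same dose of TRAP after pertussis toxin (PTX, 200 ng/ml for 24 h). All stimulated cells were harvested 120 min after the stimulus. The labels describe the basal arrays as prior to stimulation and give them no time. If those cells were taken at the start, changes over the 120 min cannot be told apart from the response to the stimulus. PTX blocks signalling through Gi proteins. Whether the basal cells of the TRAP after PTX experiment had received PTX is not stated, and that comparison may hold the toxin's own effect too. Nothing in the labels tells whether replicates were separate cultures, so the p-values cover the spread among these arrays alone, which may be technical. In such bulk RNA, fewer cells of a type and less RNA per cell cannot be told apart.

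The mammalian clock is a feedback loop of transcription. CLOCK with its partner BMAL1 switches on the Per and Cry genes at DNA motifs called E-boxes, and PER and CRY proteins then return to the nucleus and inhibit that pair. Nr1d1 and Nr1d2 encode the nuclear receptors REV-ERB alpha and beta, which repress Bmal1, and Dbp encodes a transcription factor of D-box motifs that is a direct output of CLOCK and BMAL1. Noct encodes nocturnin, a phosphatase with rhythmic transcript levels in mouse tissues, and it is also known as an immediate-early gene. In cultured cells, Per1 and Per2 respond acutely to serum and to signals that reach the factors CREB and SRF, which is a usual way to reset the clocks of a dish of cells.

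The sequences around the starts of the 4 genes that passed the test in the average of the 3 responses are shown because these genes moved in 2 directions within the same cells. Each runs from 250 bases before to 50 bases after the annotated gene start, 5′ to 3′, from RefSeq on the build GRCr8, and capitals mark matches to the clock and signal motifs described next.
Noct, chr2:137421824-137422123, forward strand: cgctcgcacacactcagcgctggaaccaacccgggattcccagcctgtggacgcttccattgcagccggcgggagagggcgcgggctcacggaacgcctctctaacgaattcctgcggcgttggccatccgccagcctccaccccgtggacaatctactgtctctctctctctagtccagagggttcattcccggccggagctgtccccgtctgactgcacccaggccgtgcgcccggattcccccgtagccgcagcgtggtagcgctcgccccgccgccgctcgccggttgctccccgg
Per2, chr9:99496944-99497243, reverse strand: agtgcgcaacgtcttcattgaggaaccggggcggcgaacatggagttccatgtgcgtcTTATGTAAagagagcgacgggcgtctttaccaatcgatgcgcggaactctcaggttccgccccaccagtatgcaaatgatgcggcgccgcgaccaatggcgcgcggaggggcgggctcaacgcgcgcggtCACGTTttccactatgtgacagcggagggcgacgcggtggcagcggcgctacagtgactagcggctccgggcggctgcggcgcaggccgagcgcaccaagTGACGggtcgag
Dbp, chr1:105312006-105312305, forward strand: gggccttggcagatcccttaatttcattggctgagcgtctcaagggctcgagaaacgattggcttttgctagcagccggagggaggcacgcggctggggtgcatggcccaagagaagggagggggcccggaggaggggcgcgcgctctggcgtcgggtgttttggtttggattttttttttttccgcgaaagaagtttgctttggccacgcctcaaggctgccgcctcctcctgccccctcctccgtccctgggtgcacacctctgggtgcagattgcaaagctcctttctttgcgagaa
Per3, chr5:166777751-166778050, reverse strand: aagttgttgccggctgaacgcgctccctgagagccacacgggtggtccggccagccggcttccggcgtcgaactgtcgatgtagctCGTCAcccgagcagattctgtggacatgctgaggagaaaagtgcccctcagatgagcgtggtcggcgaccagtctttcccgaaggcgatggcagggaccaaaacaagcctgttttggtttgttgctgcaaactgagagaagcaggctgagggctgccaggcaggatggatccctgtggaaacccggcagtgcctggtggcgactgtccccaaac

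Both strands were searched for the E-box CACGTG, its non-canonical form CACGTT (added after the sequences were seen), the full cAMP response element TGACGTCA and the short form of it TGACG, the D-box TTATGNAA, the ROR element TAGGTCA, and the CArG box that SRF binds. The short form lies within every full element, and no other motif of the list contains another. The Per2 window held 1 D-box (first base at -192 from the gene start), 1 CACGTT (-62) and 1 short cAMP response element (39). A D-box occurred in 3.66% of all 33469 rat windows of this length, CACGTT in 4.83% and the short element in 21.2%. The Per3 window held 1 short element on the opposite strand (-164). The windows of Noct and Dbp held none of these motifs. Windows were found for 9 of the 10 genes (11 windows, Cry1 being the gene without one). Among the others, 1 window of Nr1d1 held the canonical E-box (-191), which 6.42% of all windows hold, and its other window held CACGTT (-174). Cry2 held CACGTT (-212) and Nr1d2 the short element (39), the last 3 matches on the opposite strand. None of the 11 held a full cAMP response element, a ROR element or a CArG box, which occur in 1.83%, 2.63% and 1.64% of all windows. A match is a description of letters in this window and no evidence of binding.

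The values are linear intensities scaled by the authors so that each array has the same trimmed mean. The 7 smooth muscle markers passed the filter on brightness but differed widely. Mean signals were 7220.5 for Acta2, 5561.3 for Tagln, 1668.2 for Cnn1 and 282.6 for Smtn. Mylk was at 88.3, Myh11 at 50.7 and Des at 28.85. Their summed signal was 11705 to 13452 after thrombin and 9802 to 10304 in its basal cells, against 14838 to 19305 on the 8 arrays of the TRAP experiments. Of the markers of other cells, 1 of 5 endothelial genes (Tek, mean signal 45.4), 1 of 5 leukocyte genes (Csf1r, 30.8) and none of 5 adipocyte genes passed the filter on brightness. The endothelial and leukocyte markers below the filter had mean signals of 1.88 (Itgam) to 15.6 (Cd68). Of 3 Schwann cell genes, 1 passed the filter (Cnp, mean signal 256.0). The fibroblast list passed in 5 of 6, led by Mfap5 at 5431.3, and its summed signal was 5784 to 6101 after thrombin and 5447 to 5871 in its basal cells, against 7307 to 8305 on the 8 arrays of the TRAP experiments. The part of these markers in the results was not tested. Arrays of the TRAP experiments fell into 2 sets that cross their labels: the inflammatory gene Saa3 was at 15.9 to 22.8 on 4 of them (TRAP replicate 2, replicate 1 of TRAP after PTX and the basal pair of the TRAP experiment) and at 222.5 to 420.9 on the other 4. Replicate 1 of TRAP and replicate 1 of TRAP after PTX were each in the opposite set from their basal cells. The labels were used as given. Whether these 2 arrays were exchanged was not tested, and an exchange would change what the TRAP values, those after PTX and TRAP and their difference compare. Calls in these experiments that were lost without the pair are given with that value. Noct, Per2, Dbp and Per3 did not split by these sets. Noct, for example, spanned 89.6 to 700.7 in the first set and 75.9 to 513.8 in the second.

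Noct was the gene of the 10 that changed most. Its signal was 1277.3 and 1201.5 after thrombin, against 193.4 and 138.2 in the basal cells of that experiment. After TRAP it was 513.8 and 700.7, against 89.6 and 94.1 in basal cells. After PTX and TRAP it was 646.2 and 502.4, against 111.3 and 75.9 in basal cells. Every stimulated array lay above all 6 basal arrays, and both thrombin arrays lay above the other 4 stimulated arrays. On the log2(signal + 16) scale the rise was 2.80 ± 0.19 (SE) with thrombin, 2.51 ± 0.19 with TRAP and 2.44 ± 0.19 after PTX and TRAP, or 6.98-fold, 5.71-fold and 5.42-fold. By limma, with Benjamini-Hochberg adjustment across 18625 probe sets, the adjusted p was 1.51e-06, 6.44e-06 and 1.24e-05. By the size of the change, Noct ranked 9 among all probe sets after thrombin, 7 after TRAP and 4 after PTX and TRAP. Without the pair of arrays outside their sets the rise was 2.73 with TRAP and 2.26 after PTX and TRAP (limma adjusted p = 3.30e-05 and 0.000243). The rise passed in each of the 25 alternatives of each response.

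Per2, the period gene that responds to acute signals, rose in all 3 experiments by far less than Noct. Its signal was 360.1 and 336.4 after thrombin, against 198.7 and 169.2 in basal cells. After TRAP it was 383.4 and 368.3, against 256.2 and 221.8 in basal cells, and after PTX and TRAP 387.5 and 382.6, against 242.7 and 268 in basal cells. All 6 stimulated arrays lay above all 6 basal arrays, and the stimulated levels were closer to each other (336.4 to 387.5) than the basal ones (169.2 to 268). The log2 rise was 0.87 ± 0.12 with thrombin, 0.62 ± 0.12 with TRAP and 0.57 ± 0.12 after PTX and TRAP (limma adjusted p = 0.000612, 0.00846 and 0.0210). Without the pair of arrays that stand outside their sets, the TRAP rise was 0.60 (limma adjusted p = 0.0666) and that after PTX and TRAP 0.56 (limma adjusted p = 0.129), so both calls were lost at nearly the same size. The TRAP call was also lost without basal TRAP replicate 2 (0.53, limma adjusted p = 0.114) or TRAP replicate 1 (limma adjusted p = 0.0558). The call after PTX and TRAP was lost without any 1 of the 4 arrays of that experiment, at 0.50 to 0.63 (limma adjusted p from 0.0619 to 0.115). The average of the 3 responses was 0.69 ± 0.07 (limma adjusted p = 1.60e-05) and passed in all 24 alternatives. A further Per2 probe set was at 4.4 to 9 on the 12 arrays and too dim to test.

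Dbp, the output factor, was lower after stimulation. Its signal was 77.1 and 74.5 after thrombin, against 93.5 and 92.3 in basal cells. It was 39 and 53.5 after TRAP, against 79.4 and 85.3 in basal cells, and 47.5 and 50.9 after PTX and TRAP, against 91.6 and 100.9 in basal cells. All 6 stimulated arrays were below all 6 basal arrays. The log2 change was -0.67 ± 0.16 with TRAP and -0.78 ± 0.16 after PTX and TRAP (limma adjusted p = 0.0367 and 0.0224). With thrombin it was -0.25 ± 0.16, which did not pass (limma adjusted p = 0.484), and the difference between the thrombin and TRAP responses did not pass either (0.42, 95% interval -0.08 to 0.92, limma adjusted p = 0.596). The 2 calls were not stable: without the pair of arrays outside their sets the changes were -0.50 and -0.75 (limma adjusted p = 0.252 and 0.108). The TRAP call was also lost without basal TRAP replicate 1 or 2, TRAP replicate 1, or thrombin replicate 1 or 2 (limma adjusted p from 0.0585 to 0.250), and the other without any 1 of the 4 arrays of its experiment (limma adjusted p from 0.0530 to 0.130). With median centring of the arrays the TRAP change was -0.58 (limma adjusted p = 0.0904). The average fall of 0.57 ± 0.09 passed (limma adjusted p = 0.00148) in all 23 alternatives that kept the probe set.

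Per3, the third period gene and a target of the loop, was low after stimulation as well, but near the dim end of the array. Its signal was 13.9 and 4.4 after thrombin, against 34 and 19.3 in basal cells. After TRAP it was 35.9 and 49.7, against 78.1 and 77 in basal cells, and after PTX and TRAP 42 and 58.8, against 69.9 and 76.4 in basal cells. Within each experiment both stimulated arrays lay below both basal arrays. The log2 changes were -0.77 ± 0.25, -0.68 ± 0.25 and -0.44 ± 0.25, none of which passed alone (limma adjusted p = 0.10, 0.168 and 0.395). The average fall of 0.63 ± 0.14 passed (limma adjusted p = 0.0101), and did not without the pair of arrays outside their sets (-0.51, limma adjusted p = 0.0807). For so dim a gene the size depends on the pseudocount, at -0.99 with 1 and -0.33 with 64 in place of 16. Another Per3 probe set, below the filter, had signals of 29.7 and 21.3 after thrombin, against 16.7 and 19.2 in basal cells. It disagreed there with the tested probe set, while after TRAP (9.5 and 9.8, against 15.6 and 16.8 in basal cells) it pointed the same way.

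**Figure D1:**
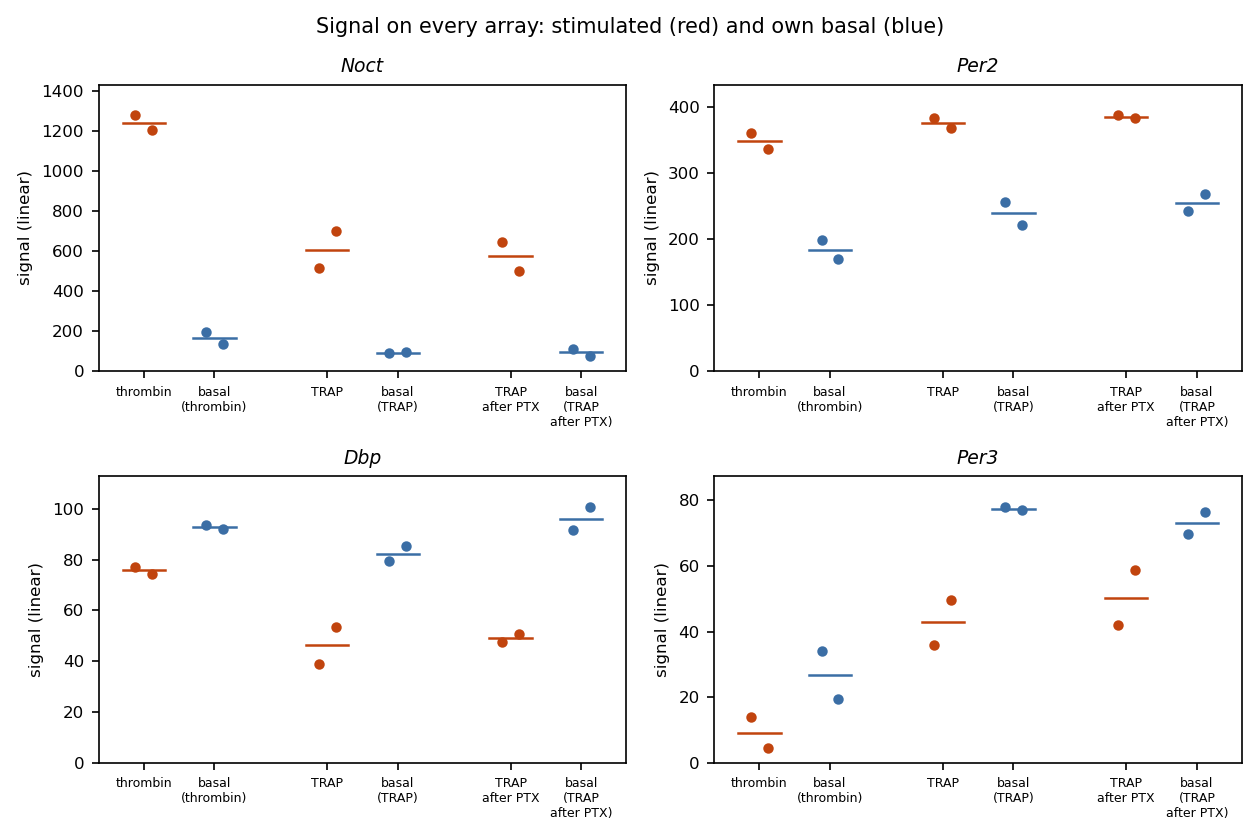
Signal (linear scale) of Noct, Per2, Dbp and Per3 on each of the 12 arrays, with points for the 2 arrays of a group and a bar for their mean. For Noct and Per2 the 6 stimulated arrays (red) lie above the 6 basal arrays (blue), and for Dbp below them, while Per3 separates within each experiment.

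Per1, the other acute period gene, could not be read. Its probe set had signals of 7.1 and 28.7 after thrombin, against 13.3 and 7.1 in basal cells, and of 56.3 and 11.5 after PTX and TRAP, against 13.8 and 21.7 in basal cells. After TRAP it had 10.7 and 6.7, against 14.2 and 30.1 in basal cells. In each experiment a pair of replicates differed by more than the group means did. In the TRAP experiment both stimulated arrays lay below both basal arrays. Tested without a filter, none of its 3 responses passed (limma adjusted p from 0.696 to 0.864).

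The remaining genes of the loop showed no change that passed. Clock, which encodes the activator, had signals of 446.6 and 463.1 after thrombin, against 382.7 and 309.9 in basal cells. On its brightest probe set the log2 changes were 0.39 ± 0.16, 0.26 ± 0.16 and 0.15 ± 0.16 for thrombin, TRAP, and TRAP after PTX (limma adjusted p = 0.227, 0.487 and 0.675). The average of 0.27 ± 0.09 did not pass (limma adjusted p = 0.0823), and passed with each array centred on its median (0.33, limma adjusted p = 0.0324), with the 2 sets of arrays as a block (limma adjusted p = 0.0411), without basal TRAP replicate 1 (0.33, limma adjusted p = 0.0481) and without TRAP after PTX replicate 2 (0.33, limma adjusted p = 0.0420). Another Clock probe set gave 0.23 with thrombin and -0.27 and -0.23 in the TRAP experiments, opposite in sign to the brightest there, and a further one gave 0.17, 0.22 and 0.11, of the same sign in all 3. The brightest gave 0.39 with TRAP and -0.03 after PTX and TRAP when the pair of arrays outside their sets was left out.

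Cry1 and Cry2 encode the repressors that act with PER. Cry1 had signals of 180.7 and 176.7 after thrombin, against 249.9 and 151.3 in basal cells, and 171.4 and 170.2 after TRAP, against 116.7 and 156.6 in basal cells. After PTX and TRAP it had 185.8 and 151.5, against 143.5 and 107.3 in basal cells. The changes of Cry1 were -0.12 ± 0.21, 0.30 ± 0.21 and 0.39 ± 0.21, all short of the threshold (limma adjusted p = 0.837, 0.523 and 0.361). Cry2 had signals of 125.2 and 107.2 after thrombin, against 148.4 and 152.3 in basal cells, and 164.6 and 139 after PTX and TRAP, against 192.7 and 222.3 in basal cells. After TRAP it had 207.9 and 154.6, against 157.1 and 153.2 in basal cells. Its changes were -0.33 ± 0.15, 0.19 ± 0.15 and -0.41 ± 0.15 for thrombin, TRAP, and TRAP after PTX (limma adjusted p = 0.269, 0.606 and 0.181). Cry2 was at -0.00455 with TRAP and -0.52 after PTX and TRAP without the pair of arrays outside their sets.

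Neither REV-ERB gene had a response past the threshold as fitted. Nr1d1 had signals of 71.8 and 67.6 after thrombin, against 70.1 and 60.4 in basal cells, 98.4 and 100.2 after TRAP, against 125.7 and 104.8 in basal cells, and 116.7 and 109.2 after PTX and TRAP, against 157.4 and 129.6 in basal cells. In the TRAP experiments its stimulated arrays were below their basal arrays, at -0.18 ± 0.15 and -0.30 ± 0.15, and neither passed (limma adjusted p = 0.629 and 0.340). Nr1d2 had 230.5 and 235.6 after thrombin, against 307.4 and 325.3 in basal cells, a change of -0.42 ± 0.11 that just missed the threshold (limma adjusted p = 0.0540). It passed with a filter at the 60th percentile (limma adjusted p = 0.0447) and without either basal array of the TRAP after PTX experiment (limma adjusted p = 0.0499 and 0.0492). Its other tested probe sets gave -0.19 and -0.09. In the TRAP experiments Nr1d2 changed by 0.04 and -0.07.

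**Figure D2:**
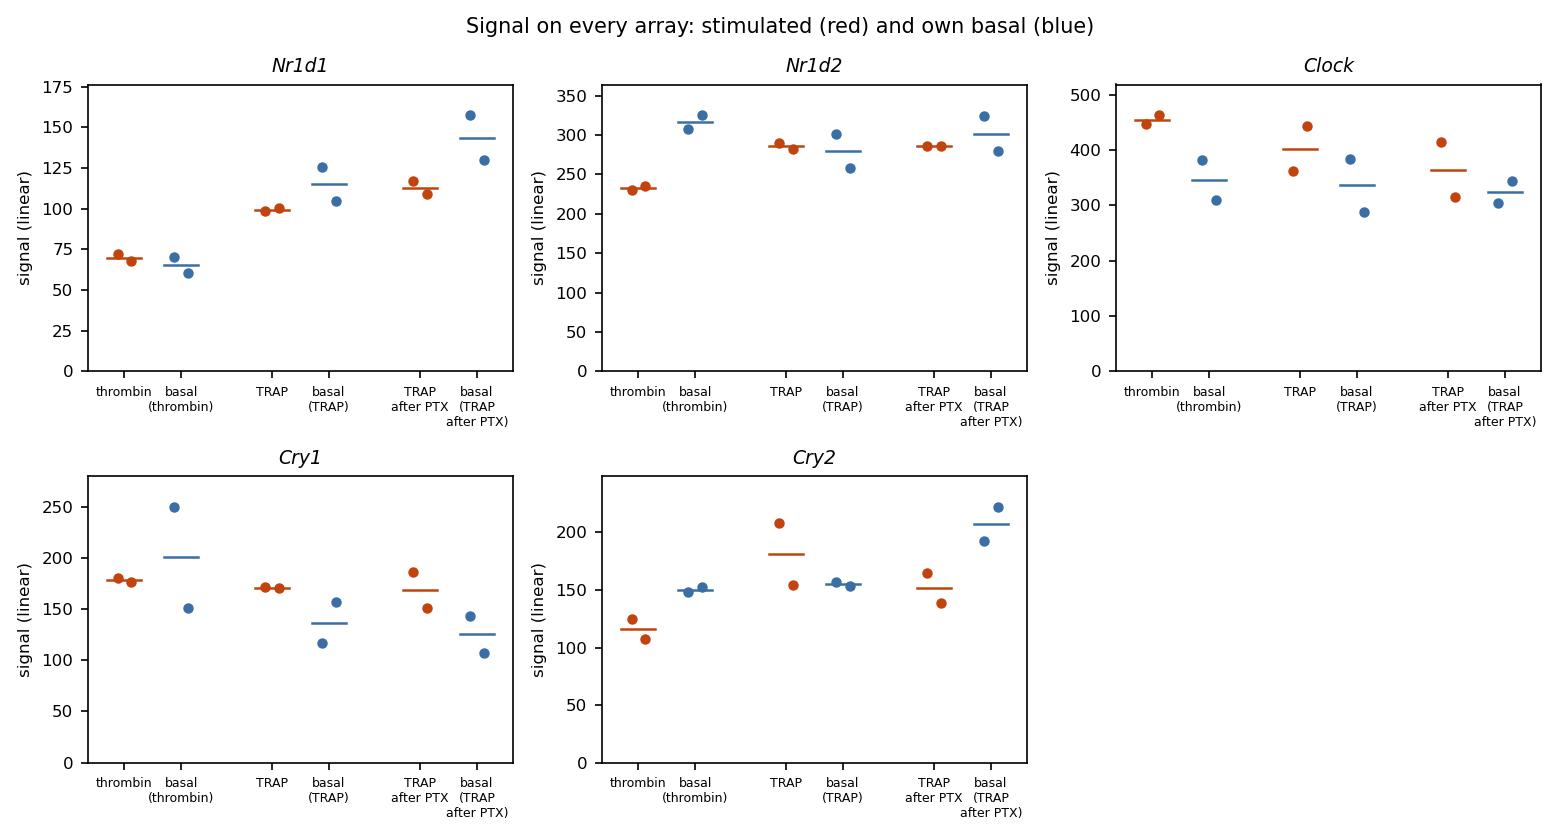
Signal (linear scale) of Nr1d1, Nr1d2, Clock, Cry1 and Cry2 (brightest probe set each) on each of the 12 arrays, with points for the 2 arrays of a group and a bar for their mean. Nr1d1 is lower on the 4 arrays of the thrombin experiment (60.4 to 71.8) than on the other 8, and stimulated (red) and basal (blue) groups overlap or lie close for most genes.

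Over the 9 tested genes, 2 rose and none fell with thrombin, where 4.74% of all probe sets passed (2.63% higher and 2.1% lower). With TRAP 2 rose and 1 fell, against 3.9% of all (1.84% higher, 2.07% lower). After PTX and TRAP 2 rose and 1 fell, against 2.71% of all (1.68% higher, 1.03% lower). In the average 2 rose and 2 fell, against 13.2% of all (5.55% higher, 7.62% lower). Noct and Per2 were the genes that rose in each case and Dbp the one that fell in both TRAP experiments. At an unadjusted p under 0.05 in limma's test, 6 of the 9 differed with thrombin and 4 with TRAP. After PTX and TRAP 4 did, and in the average 6. The share of all probe sets at that level was not counted. The median change over the 9 genes was -0.12, 0.19 and -0.07 in the 3 responses, beside -0.04, -0.04 and -0.04 over all probe sets. The members were chosen with earlier results of these data known, so these shares are a description.

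The responses of these genes were compared directly to see whether the protease and the peptide, or the peptide with and without PTX, differed. The thrombin response exceeded the TRAP response of Noct by 0.29 (95% interval -0.29 to 0.87) and of Per2 by 0.25 (-0.11 to 0.60), and neither difference passed in limma's test (adjusted p = 0.790 and 0.684). The response after PTX and TRAP minus the TRAP response was -0.08 for Noct (-0.66 to 0.51), -0.06 for Per2 (-0.41 to 0.30) and -0.11 for Dbp (-0.61 to 0.39), again short of the threshold (limma adjusted p = 0.974, 0.966 and 0.942). These sizes depended on single arrays. Without the pair of arrays outside their sets the excess of thrombin over TRAP for Noct was 0.07 (limma adjusted p = 0.968), and without 1 array at a time it lay between 0.07 (without basal thrombin replicate 2 or TRAP replicate 1) and 0.51 (without basal thrombin replicate 1 or TRAP replicate 2). That of Per2 was 0.27 without the pair and 0.14 to 0.35 without 1 array, the lowest being without basal thrombin replicate 2. The PTX difference of Noct was -0.47 both without the pair and with the 2 sets as a block (limma adjusted p = 0.878 and 0.795). Without 1 array it lay between -0.31 and 0.16, and its sign turned without TRAP replicate 2, TRAP after PTX replicate 2 or basal TRAP after PTX replicate 1. Without the pair, Dbp was at -0.25 and Per2 at -0.04, and their sign also turned without 1 array (up to 0.05 for Dbp and 0.04 for Per2). None of the 9 genes passed in limma's test of either difference, where 0.532% and 0.129% of all probe sets did. At an unadjusted p under 0.05, 2 genes (Cry2 and Nr1d2) differed between thrombin and TRAP and 1 (Cry2) with PTX. Cry2 had the largest of the 9 PTX differences, at -0.61 (-1.07 to -0.14, limma adjusted p = 0.435), and its other tested probe set gave -0.02. Without the pair it was -0.52 (limma adjusted p = 0.705). Over all alternatives, none of the 446 values of these differences for the 9 genes passed.

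Further genes of the clock were counted to place the 10 genes in the pathway, from a list of 22 of which 15 had a bright enough probe set. With thrombin 2 of 15 rose and none fell, where 2.63% of all probe sets rose and 2.1% fell. With TRAP 2 rose and 1 fell (1.84% and 2.07% of all), after PTX and TRAP 4 rose and none fell (1.68% and 1.03%), and in the average 4 rose and 1 fell (5.55% and 7.62%). The medians over the list were -0.01, -0.03, 0.02 and 0.02, beside -0.04 over all probe sets in each case. At an unadjusted p under 0.05 in limma's test, 8 of the 15 differed with thrombin and 6 with TRAP. After PTX and TRAP 5 did, and in the average 6. The genes that rose were Nfil3, whose product represses D-box genes, Bhlhe40, which encodes DEC1, a repressor at E-boxes, Cipc, an inhibitor of CLOCK, and Bmal1, the partner of CLOCK.

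Nfil3 had signals of 328.3 and 319.3 after thrombin, against 119.4 and 89.8 in basal cells, 501.6 and 552.2 after TRAP, against 304.1 and 330.6 in basal cells, and 693.7 and 504.7 after PTX and TRAP, against 370.6 and 301.4 in basal cells. Both stimulated arrays exceeded both basal arrays in each experiment, with log2 changes of 1.51 ± 0.16, 0.70 ± 0.16 and 0.80 ± 0.16 (limma adjusted p = 9.43e-05, 0.0237 and 0.0173). The TRAP call was lost without any 1 array of its experiment (limma adjusted p from 0.0633 to 0.194), and that after PTX and TRAP without TRAP after PTX replicate 1 (0.57, limma adjusted p = 0.165) or basal replicate 2 (0.65, limma adjusted p = 0.151). Without the pair of arrays outside their sets the changes were 0.77 with TRAP and 0.57 after PTX and TRAP (limma adjusted p = 0.0371 and 0.175). Its response with thrombin was larger than with TRAP by 0.80, a difference that did not pass (limma adjusted p = 0.168).

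Bhlhe40 had 430.2 and 394.5 after thrombin, against 259.3 and 198.2 in basal cells, and rose by 0.82 ± 0.15 with thrombin and 0.78 ± 0.15 after PTX and TRAP (limma adjusted p = 0.00659 and 0.0144). It changed by 0.57 with TRAP (limma adjusted p = 0.0534). The thrombin call was lost without thrombin replicate 1 (0.76, limma adjusted p = 0.0738), and the other without TRAP after PTX replicate 1 or 2 or basal replicate 2 (limma adjusted p from 0.0538 to 0.140). Cipc had 970.1 and 1015.4 after TRAP, against 629.5 and 641.9 in basal cells, and rose by 0.63 ± 0.09 with TRAP and 0.49 ± 0.09 after PTX and TRAP (limma adjusted p = 0.00193 and 0.0135). The second Cipc call was lost without TRAP after PTX replicate 1 or basal replicate 2 (limma adjusted p = 0.112 and 0.124). Bmal1 had 191 and 161.4 after PTX and TRAP, against 101.7 and 113.4 in basal cells, and rose by 0.63 ± 0.14 (limma adjusted p = 0.0269), a call lost without TRAP after PTX replicate 1 (0.52, limma adjusted p = 0.191) or without basal replicate 1 or 2 (limma adjusted p = 0.104 and 0.0741). Without the pair of arrays outside their sets the calls after PTX and TRAP were lost for Bhlhe40 (0.87, limma adjusted p = 0.0581), Cipc (0.45, limma adjusted p = 0.120) and Bmal1 (0.52, limma adjusted p = 0.208), while that of Cipc with TRAP was kept (0.66, limma adjusted p = 0.0126). Bmal1 changed by 0.30 with thrombin and 0.50 with TRAP (limma adjusted p = 0.260 and 0.0592). Its response after PTX and TRAP minus that with TRAP was 0.13 and did not pass (limma adjusted p = 0.918). In the average, Bmal1 rose by 0.48 ± 0.08 and Cipc by 0.46 ± 0.05 (limma adjusted p = 0.00132 and 8.16e-05).

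Timeless, which takes part in DNA replication and is a relative of the fly clock gene, fell by 0.70 ± 0.18 with TRAP (limma adjusted p = 0.0454), a call lost in 17 of 24 alternatives. They include 10 of the 12 fits that leave out 1 array, at -0.84 to -0.57, the 2 exceptions being those without TRAP after PTX replicate 1 or 2, and the fit without the pair (-0.57, limma adjusted p = 0.199). Its average fall of 0.48 ± 0.10 passed (limma adjusted p = 0.00769). The cell division genes Mki67, Top2a, Ccnb1 and Cdk1 had a summed signal of 3161 to 3483 in basal cells of the TRAP experiment. After TRAP it was 2008 on replicate 1, which stands outside the set of its basal cells, and 3205 on replicate 2, within the basal range. Timeless was at 69.8 and 87.6 on these 2 arrays, against 145.3 and 129.9 in basal cells. The part of the cell division genes in the Timeless value was not tested.

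**Figure D3:**
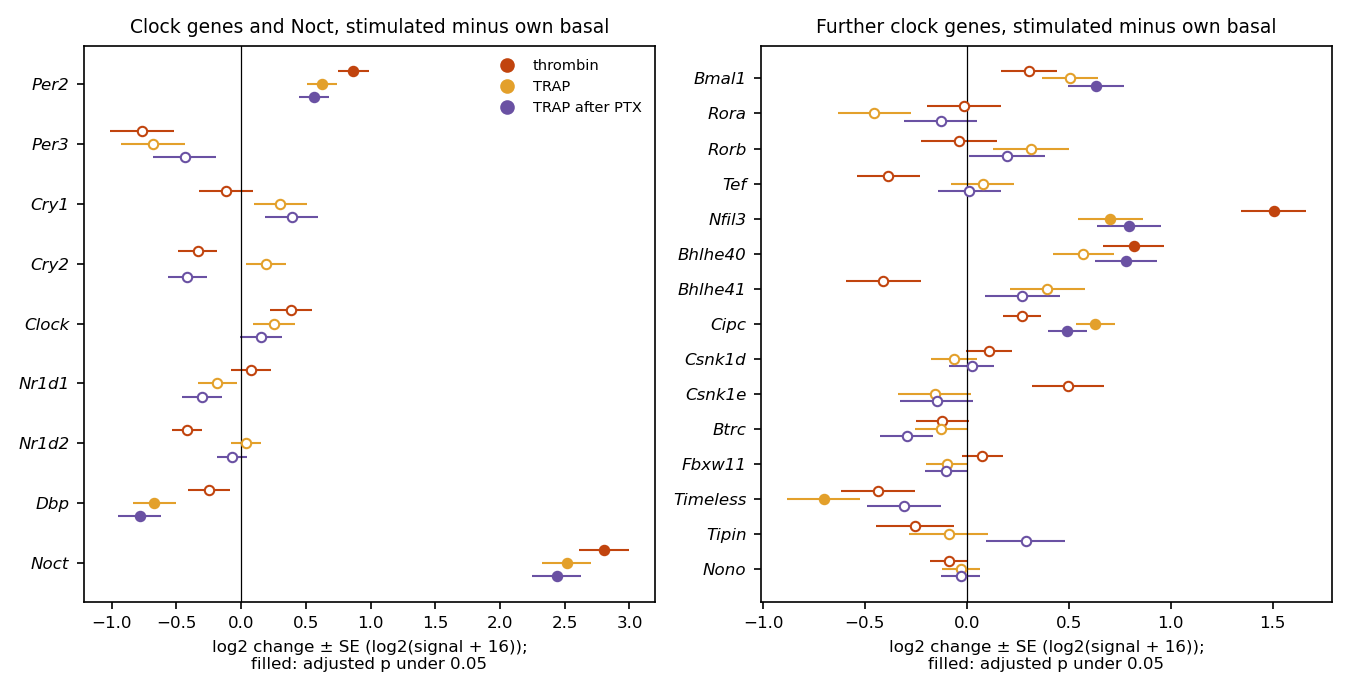
Log2 change with its SE of the 9 tested clock genes and Noct (left) and of the 15 further clock genes (right), for thrombin, TRAP, and TRAP after PTX, each against its own basal arrays; filled points passed limma's test at an adjusted p under 0.05. Noct stands apart at 2.44 to 2.80, Per2 and Nfil3 are to the right of 0 in all 3 responses, and Per3 and Dbp are to the left.

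Transcripts of factors that act on Per promoters in other systems mostly did not pass. Of 11 measured, 1 rose with thrombin, 2 with TRAP, none after PTX and TRAP in limma's test, and 4 in the average, where 2.63%, 1.84%, 1.68% and 5.55% of all probe sets rose. None fell. At an unadjusted p under 0.05 in limma's test, 4 of the 11 differed with thrombin and 4 with TRAP. After PTX and TRAP 3 did, and in the average 7. Srf, the factor of CArG boxes, had 1931 and 1898.4 after thrombin, against 704.1 and 862.8 in basal cells, a rise of 1.28 ± 0.11 (limma adjusted p = 1.35e-05). It rose by 0.54 ± 0.11 with TRAP (limma adjusted p = 0.0122). That call was lost without TRAP replicate 1, without basal TRAP replicate 1 or 2, or without the pair outside their sets (0.50). After PTX and TRAP the change of Srf was 0.19 (limma adjusted p = 0.387). Its thrombin response exceeded its TRAP response by 0.74 (limma adjusted p = 0.0535). The response after PTX and TRAP minus the TRAP response was -0.35 (limma adjusted p = 0.573). Neither difference passed. Elk4, which binds with SRF, rose by 0.40 ± 0.10 with TRAP (limma adjusted p = 0.0474), a call lost in 15 of 25 alternatives, 1 of them without the pair (0.36, limma adjusted p = 0.237) and 8 without 1 array (each of the 8 arrays other than the basal arrays of the thrombin and of the TRAP after PTX experiments). In the average Sik1, a kinase that restrains CREB signalling, rose by 0.63 ± 0.14 and Crem, which encodes CREB-related repressors, by 0.30 ± 0.09 (limma adjusted p = 0.00911 and 0.0433). Sik1 was dim, at 12.6 to 36.2 on the basal arrays. Its average passed in all 23 alternatives that kept it, but the size ran from 0.32 to 0.96. The Crem call was lost in 12 of 24 alternatives, that without the pair among them (0.27, limma adjusted p = 0.0740).

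Among 8 measured clock output genes, none passed with thrombin in limma's test (0 at an unadjusted p under 0.05), where 4.74% of all probe sets did. With TRAP 1 passed (3.9% of all), after PTX and TRAP 1 (2.71%) and in the average 2 (13.2%). At an unadjusted p under 0.05 these counts were 2, 2 and 3. Cdkn1a, a cell cycle inhibitor, rose by 0.48 ± 0.11 with TRAP (limma adjusted p = 0.0333), and Alas1, an enzyme of haem synthesis, fell by 0.49 ± 0.12 after PTX and TRAP (limma adjusted p = 0.0458). The Cdkn1a call was lost without any 1 array of its experiment (0.44 to 0.52, limma adjusted p from 0.102 to 0.195) or without the pair (0.44, limma adjusted p = 0.170), and the Alas1 call in 18 of 25 alternatives, that without the pair among them (-0.56, limma adjusted p = 0.107). In the average Klf10 rose by 0.32 ± 0.08 and Alas1 fell by 0.23 ± 0.07 (limma adjusted p = 0.0137 and 0.0388), the Alas1 call being lost in 13 of 24 alternatives, that without the pair among them (-0.23, limma adjusted p = 0.0908). The output genes Wee1 and Usp2 changed by -0.34 to 0.40 and did not pass. The 5 relatives of Noct that share its catalytic fold, Cnot6, Cnot6l, Angel1, Angel2 and Pde12, passed in no single response (1, 0 and 2 at an unadjusted p under 0.05 in the thrombin, TRAP, and TRAP after PTX responses). Their changes ran from -0.62 to 0.26. In the average Cnot6, a deadenylase subunit, rose by 0.20 ± 0.06 (limma adjusted p = 0.0323), a call lost in 9 of 24 alternatives, that without the pair among them (0.21, limma adjusted p = 0.0709).

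The genes whose pattern over the 12 arrays was nearest to that of Noct were found by the root mean square difference of log2 values centred on each gene's own mean, among 9905 other genes. They were Plaur, the urokinase receptor, at a difference of 0.36, the kinase gene Sgk1 at 0.41 and the transcription factor genes Egr1 (0.47), Fosl1 (0.48) and Egr2 (0.49). Their average rises were 2.00, 2.21, 1.99, 3.48 and 2.24, beside 2.59 for Noct. Nearest to Dbp were Ralgds at 0.13, Trim34 at 0.13, Exoc1 at 0.15, Nfib at 0.15 and C11h21orf91 at 0.15, with average changes from -0.69 to -0.33, beside -0.57 for Dbp. For both lists the 12 arrays share the same stimuli and the same experiments.

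Basal levels were set side by side to see whether the unstimulated cells of the 3 experiments differed in these genes. Nr1d1 was at 70.1 and 60.4 in basal cells of the thrombin experiment, against 125.7 and 104.8 in those of the TRAP experiment and 157.4 and 129.6 in those of the TRAP after PTX experiment. Its basal difference was -0.69 ± 0.15 against the TRAP experiment and -0.97 ± 0.15 against the TRAP after PTX experiment (limma adjusted p = 0.00274 and 0.000234). Per3 was at 34 and 19.3 in basal cells of the thrombin experiment, against 69.9 to 78.1 on the other 4 basal arrays, a difference of -1.15 ± 0.25 and -1.08 ± 0.25 (limma adjusted p = 0.00204 and 0.00326). Per2 was lower in basal cells of the thrombin experiment by -0.35 and -0.44 (limma adjusted p = 0.0271 and 0.00808), and Noct was higher by 0.74 and 0.73 (limma adjusted p = 0.00733 and 0.00786). For Nr1d1, Per3, Per2 and Noct, the 2 basal arrays of the thrombin experiment did not overlap with the other 4. The same held narrowly for the brightest Cry2 probe set, at 148.4 and 152.3 against 153.2 to 222.3. The share of all probe sets that separate in this way was not counted, so the separation is a description and not a result about clock genes. In limma's test, the basal cells of the thrombin experiment differed from those of the TRAP experiment in 40.7% of all probe sets. Against the TRAP after PTX experiment the share was 40.6%.

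Some of these basal differences rested on 1 array. The 2 differences of Noct lost their call without basal thrombin replicate 1 (0.52 and 0.51, limma adjusted p = 0.0892 and 0.0915), and the second also without basal TRAP after PTX replicate 2 (0.50, limma adjusted p = 0.0993). Those of Per2 were lost without basal thrombin replicate 2 (-0.24 and -0.34, limma adjusted p = 0.167 and 0.0647), the first also without basal TRAP replicate 1 (-0.25, limma adjusted p = 0.212) and the second without basal TRAP after PTX replicate 2 (-0.38, limma adjusted p = 0.0628). With each array centred on its median, all probe sets shifted upward by 0.19 and 0.21 in these 2 comparisons, and the Per2 differences became -0.16 and -0.23 (limma adjusted p = 0.329 and 0.167).

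Cry1 was higher in basal cells of the thrombin experiment than in those of the TRAP after PTX experiment by 0.59 (limma adjusted p = 0.0354), at 249.9 and 151.3 against 143.5 and 107.3, and lost this call without basal thrombin replicate 1 (0.25, limma adjusted p = 0.375) or basal TRAP after PTX replicate 2 (0.40, limma adjusted p = 0.239). Against the TRAP experiment it was at 0.48 (limma adjusted p = 0.0804), and at 0.81 without basal thrombin replicate 2 (limma adjusted p = 0.00815). The probe sets of Cry2 disagreed: the brighter gave -0.42 against the TRAP after PTX experiment (limma adjusted p = 0.0404, lost in 9 of 24 alternatives, 5 of them without 1 basal array) and -0.04 against the TRAP experiment, and the dimmer gave 1.29 against the TRAP experiment (limma adjusted p = 0.0120). Dbp, Clock and Nr1d2 did not pass in any basal comparison as fitted. With median centring of the arrays, Nr1d2 passed between the thrombin and TRAP experiments (0.36, limma adjusted p = 0.0450), and so did Cry1 (0.67, limma adjusted p = 0.0223).

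In all, 4 of 9 genes differed between the basal cells of the thrombin and TRAP experiments, where 40.7% of all probe sets did (18.5% higher and 22.2% lower), and 6 of 9 between those of the thrombin and TRAP after PTX experiments, where 40.6% did (19.1% higher and 21.5% lower). A share of 4 in 9 is near that background and is not a result about clock genes. The count of 6 was 2 without basal TRAP after PTX replicate 2 and 3 without basal thrombin replicate 1. None of the 9 passed between the basal cells of the TRAP after PTX and TRAP experiments in limma's test (1, Cry2, at an unadjusted p under 0.05), where 0.043% of all probe sets did (0.0215% higher and 0.0215% lower). The difference there was 0.28 (95% interval -0.05 to 0.61) for Nr1d1, 0.09 (-0.16 to 0.34) for Per2 and 0.00 (-0.41 to 0.42) for Noct. Of the further clock genes, Nfil3 was lower in basal cells of the thrombin experiment than in those of the TRAP experiment by -1.48, Timeless was lower by -1.04 and Rora higher by 0.84 (limma adjusted p = 8.38e-06, 0.000462 and 0.00205). The labels give no time of harvest, so the phase of the clock, the culture, the array batch and the experiment cannot be told apart in these differences. The summed signal of the 4 cell division genes was 1317 to 1402 in basal cells of the thrombin experiment, against 3161 to 3483 in those of the TRAP experiment and 1906 to 2042 in those of the TRAP after PTX experiment.

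**Figure D4:**
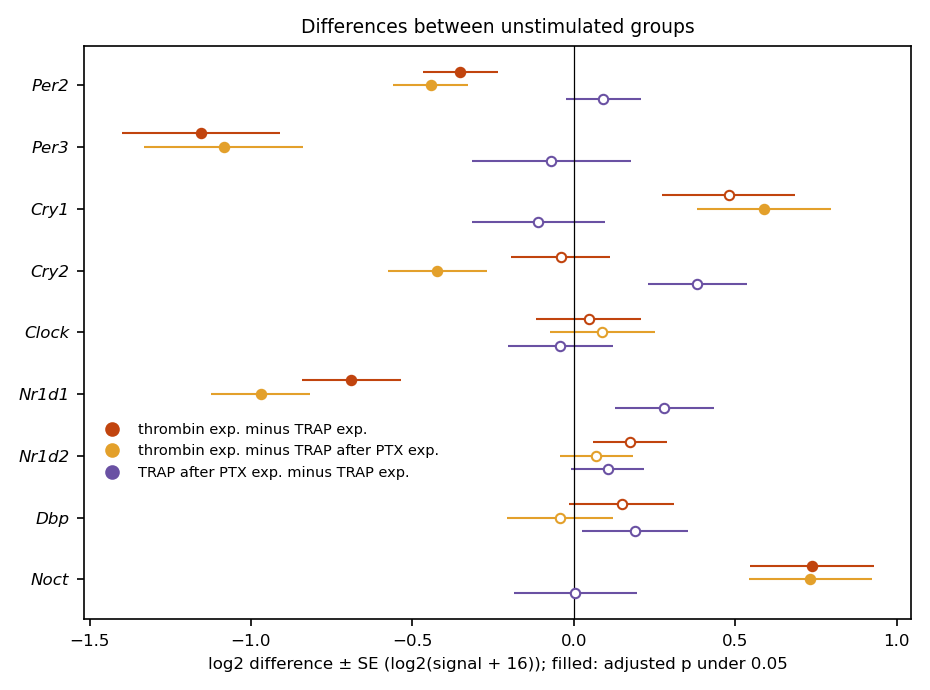
Log2 difference with its SE between the unstimulated cells of 2 experiments for the 9 tested genes; filled points passed limma's test at an adjusted p under 0.05. Per3 and Nr1d1 are lower and Noct is higher in the thrombin experiment against both others, and no gene passes between the TRAP after PTX and TRAP experiments.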

How the data were processed

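Biotin-labelled RNA of 12 samples was measured on Affymetrix arrays of 1 colour. The deposited values are linear intensities that the authors obtained with GCOS 1.4, per the submitters' processing notes, and scaled per array to a trimmed mean of about 200 (200.066 to 200.076 without the lowest and highest 2%). The genome build is not given in the sources used here, and detection calls were not used, so dim values have no bound. Median signals were 39.5 to 53.4, and precision is limited by having 2 arrays in a group.

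The log2 scale is log2(signal + 16), on which folds of dim genes are understated. Without 57 controls, 18625 probe sets past the 40th percentile were tested. A single limma model (version 3.58.1, R 4.3.3) held all 6 groups (lmFit, then eBayes with trend, 6 residual degrees of freedom), 2-sided, with Benjamini-Hochberg adjustment over all kept probe sets and a threshold of 0.05. A gene stands for its brightest kept probe set, and all 14 kept probe sets of the 10 genes were tested. Symbols came from the array annotation (0 changed through Entrez numbers). All 10 genes were named, as were listed clock genes that passed in a response or had the 3 largest basal differences. The fit was tested on simulated data. The genes and lists were chosen with earlier results of these data known, and no list test was run.

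The main fit did not pair arrays by replicate number, and the labels do not state a pairing. Deviations of same-numbered arrays correlated at 0.13 (thrombin and its basal group), 0.10 (TRAP) and 0.02 (TRAP after PTX). With 2 arrays in a group these values cannot settle whether the arrays were paired. The alternatives comprised further pseudocounts, filters and scalings, a fit without trend, array weights, a replicate block, a crossed block (added after seeing the data), the compared arrays alone, a block for the 2 sets of arrays, leaving out the 2 arrays outside their sets, and each array left out in turn. Where 1 array of a group remains, its spread is taken from the other groups.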

Additional observations from a re-analysis of the deposited data

How the results depend on the processing

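The values are counts of the 9 tested genes that passed in limma's test. Among the changes of the 22 genes followed through the alternatives, none that passed in either setting changed sign. Of 4848 values, 4528 kept their direction and their side of the threshold, 190 lost a call and 43 gained one, and 87 changed sign without passing in either setting. The average count of 4 was 2 with a filter at the 60th percentile, which drops Per3 and Dbp. The count after PTX and TRAP of 3 was 1 with the compared arrays alone and 1 without the 2 stimulated arrays outside the sets of their basal arrays, and the TRAP count of 3 was 1 without those arrays. In these last 3 cases Noct was the gene that passed. Leaving out each array in turn gave 2 to 3 for thrombin, 1 to 3 for TRAP, 1 to 3 for TRAP after PTX, 4 to 5 for the average, 0 for both differences between responses and for basal TRAP after PTX against basal TRAP, 3 to 4 for basal thrombin against basal TRAP and 2 to 6 for basal thrombin against basal TRAP after PTX. With a replicate block the counts were 2, 3, 3 and 4 in the 3 responses and the average, and the block changed no call of the 9 genes. With the numbers of the TRAP after PTX group crossed (deviations of same-numbered TRAP and TRAP after PTX arrays correlated at -0.32) they were 2, 3, 3 and 4 too. Median centring gave 405 up and 197 down over all probe sets with TRAP, against 342 and 385 as reported, 418 and 94 after PTX and TRAP, against 313 and 192, and 1301 and 643 in the average, against 1034 and 1419. It gave 34 and 39 for thrombin minus TRAP, against 60 and 39. In the basal comparisons it gave 5324 and 2671 for thrombin minus TRAP, against 3452 and 4132, 5596 and 2368 for thrombin minus TRAP after PTX, against 3556 and 4010, and 6 and 13 for TRAP after PTX minus TRAP, against 4 and 4. The set block was not run for basal comparisons with the thrombin experiment, and the average is the same fit with the compared arrays alone. Leaving out arrays leaves fewer samples in the fit. Signals near the dim end, as for Per1 and Per3, limit what can be read.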
